A study of Rattus norvegicus with 8 samples.

Results

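The genes described here are the major histocompatibility complex (MHC) genes of the rat and their closest partners in antigen presentation, measured in the wall of the abdominal aorta. Members were rows of the deposited expression table whose symbol begins with RT1-, the name of the rat MHC, together with B2m, Cd74, Ciita, Tap1, Tap2, Tapbp and Nlrc5. This gave 47 of the 18090 genes in the table. Of these, 35 belong to class I (30 RT1 loci with B2m, Tap1, Tap2, Tapbp and Nlrc5) and 12 to class II (10 RT1 loci with Cd74 and Ciita). The rule uses gene symbols and no measured value.

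Class I molecules are carried by nearly all nucleated cells. Each is a heavy chain paired with beta-2-microglobulin, the product of B2m, and holds a peptide cut in the cytosol, pumped into the endoplasmic reticulum by the Tap1 and Tap2 transporter and loaded with the help of tapasin, the product of Tapbp. Nlrc5 is the transactivator of class I genes. Class II molecules pair an alpha with a beta chain and are made mainly by B cells, dendritic cells and macrophages. They are guided by the invariant chain, the product of Cd74, exchange its remnant for peptides from endosomes with the help of the DM chains, are held back by the DO chains, and depend on the transactivator Ciita. In an artery, class II-bearing cells are usually leukocytes of the adventitia, of the blood in the lumen or of a thrombus, while class I genes are also transcribed by endothelium and smooth muscle.

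The samples were abdominal aortas of wild-type rats (Rattus norvegicus), 4 per group, described by the submitters as biologically independent. In the FeCl3 group, filter paper with 10% iron(III) chloride was laid around the vessel for 5 min, which is a common way to injure the wall and start a thrombus. In the saline group the paper carried 0.9% saline for 5 min. All samples had the wild-type genotype and the same batch label. Strain, sex, age and the time from exposure to harvest are not stated in the labels, and the vessel was taken whole, so the blood and fat it still held are part of each library. PolyA RNA was sequenced, and values are FPKM, fragments scaled by transcript length and by library total. The number of fragments behind each library, recovered from the steps between low FPKM values, was 24304434 to 30283292.

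Libraries stood apart within groups in ways that touch the members. The smooth muscle gene Acta2 was at 1304 to 10404 FPKM in the 8 libraries, so aortic wall was present in each. Saline replicate 1 had the highest Acta2 value, with Hspb1, a small heat shock protein gene, at 10156 FPKM against 168 to 291 in the other libraries. In that library the summed FPKM of 4 pan-leukocyte markers was 1.32, with 5 of 6 B cell markers and 4 of 5 T and NK cell markers at 0. The same leukocyte sum was 22.6 and 24.1 in saline replicates 2 and 3, 145 in saline replicate 4, and 101 to 506 after FeCl3. Saline replicate 4 thus lay inside the FeCl3 range, and its Hba-a1 value, an alpha globin of red cells, was 148687 FPKM against 11432 to 15520 in the other saline libraries and 147404 to 396570 after FeCl3. Results below are therefore also given without these saline libraries where that matters.

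The promoters of a few members show the sequence elements by which these genes are best known. The class II chains are read from an enhanceosome that sits on an X box and, downstream of it, a Y box bound by NF-Y. Class I promoters are known for a kappa B-like element and an interferon response element. Matches to both boxes, as searched here, were also found in class I promoters, with counts given below. The sequences are from RefSeq (build GRCr8, which is not the build the authors aligned to), 5′ to 3′ on the strand of the gene, and up to 200 bases are shown. Each run stops where the annotated gene begins, which for RT1-Da, RT1-DOb, B2m, RT1-CE16 and RT1-A2 is 22, 14, 94, 105 and 151 bases before the start used by the promoter table. Capitals mark matches on either strand to the 4 motifs searched, which were the X1 box (CCTNGNNAC), the Y box (ATTGG), an interferon response core (GAAANNGAA) and a kappa B core (GGGNNTNCC). The first 3 are class II chains whose values are given below, RT1-Da at chr20:4515193-4515392 (plus strand), RT1-DOb at chr20:4627538-4627737 (minus strand) and RT1-Ba at chr20:4576857-4577056 (plus strand).
RT1-Da: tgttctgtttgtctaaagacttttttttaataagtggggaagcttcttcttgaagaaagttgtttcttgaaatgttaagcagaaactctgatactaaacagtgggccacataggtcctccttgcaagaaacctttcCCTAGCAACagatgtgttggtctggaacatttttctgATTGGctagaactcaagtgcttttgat
RT1-DOb: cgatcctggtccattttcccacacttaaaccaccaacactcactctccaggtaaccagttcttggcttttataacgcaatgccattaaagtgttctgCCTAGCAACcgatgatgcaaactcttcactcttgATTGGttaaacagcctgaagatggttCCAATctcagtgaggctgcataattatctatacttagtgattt
RT1-Ba: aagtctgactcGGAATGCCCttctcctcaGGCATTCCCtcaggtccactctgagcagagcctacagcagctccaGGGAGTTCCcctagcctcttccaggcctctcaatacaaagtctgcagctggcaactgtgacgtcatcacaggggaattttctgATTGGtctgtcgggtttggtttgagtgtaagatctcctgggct
RT1-Da and RT1-DOb hold both an X1 and a Y box in that order, and RT1-Ba holds a Y box with 3 kappa B cores. The next 3 are on the class I side, B2m at chr3:129549080-129549235 (plus strand), RT1-CE16 at chr20:3265549-3265693 (minus strand) and RT1-A2 at chr20:4872621-4872719 (plus strand).
B2m: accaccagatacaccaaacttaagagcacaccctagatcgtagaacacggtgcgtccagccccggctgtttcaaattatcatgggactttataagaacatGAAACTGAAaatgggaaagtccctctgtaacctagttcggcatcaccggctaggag
RT1-CE16: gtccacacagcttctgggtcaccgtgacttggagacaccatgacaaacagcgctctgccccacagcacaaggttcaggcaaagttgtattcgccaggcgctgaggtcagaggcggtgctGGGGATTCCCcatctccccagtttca
RT1-A2: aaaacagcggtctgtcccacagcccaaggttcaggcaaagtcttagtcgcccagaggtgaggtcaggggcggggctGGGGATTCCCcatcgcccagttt
B2m carries the interferon response core, and both class I heavy chain loci carry the same 10-base kappa B run, in which overlapping matches of both strands meet.

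Over the 250 bases before the start, 41 of the 47 members had an entry in the promoter table. A Y box on the strand of the gene was found in 9 of 9 class II RT1 loci with an entry, in 12 of 27 class I RT1 loci, in B2m among the 4 matched class I partners, and in 19.9% of all 27457 promoters. On either strand, a Y box was found in 9 of 9 class II loci, 18 of 27 class I loci and 34.2% of all promoters. The X1 box alone, on either strand, was found in 2 of 9 class II loci, 10 of 27 class I loci and 13.8% of all promoters. An X1 box followed within 40 bases by a Y box was found in 2 of 9 class II loci, RT1-Da with 28 bases and RT1-DOb with 25 bases between them, in none of the 27 class I loci and in 0.586% of all promoters. The interferon response core was found in B2m, Tap1, Tap2 and Tapbp, which are 4 of 4 matched partners of class I, in 3 of 27 class I RT1 loci, in 0 of 9 class II loci and in 8.07% of all promoters. The kappa B core was found in 10 of 27 class I loci, 2 of 9 class II loci and 13.3% of all promoters. These are matches of letters in a fixed window and do not show that a factor binds there. Many class I promoters share stretches of sequence, so their matches are not independent of each other.

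**Figure D1:**
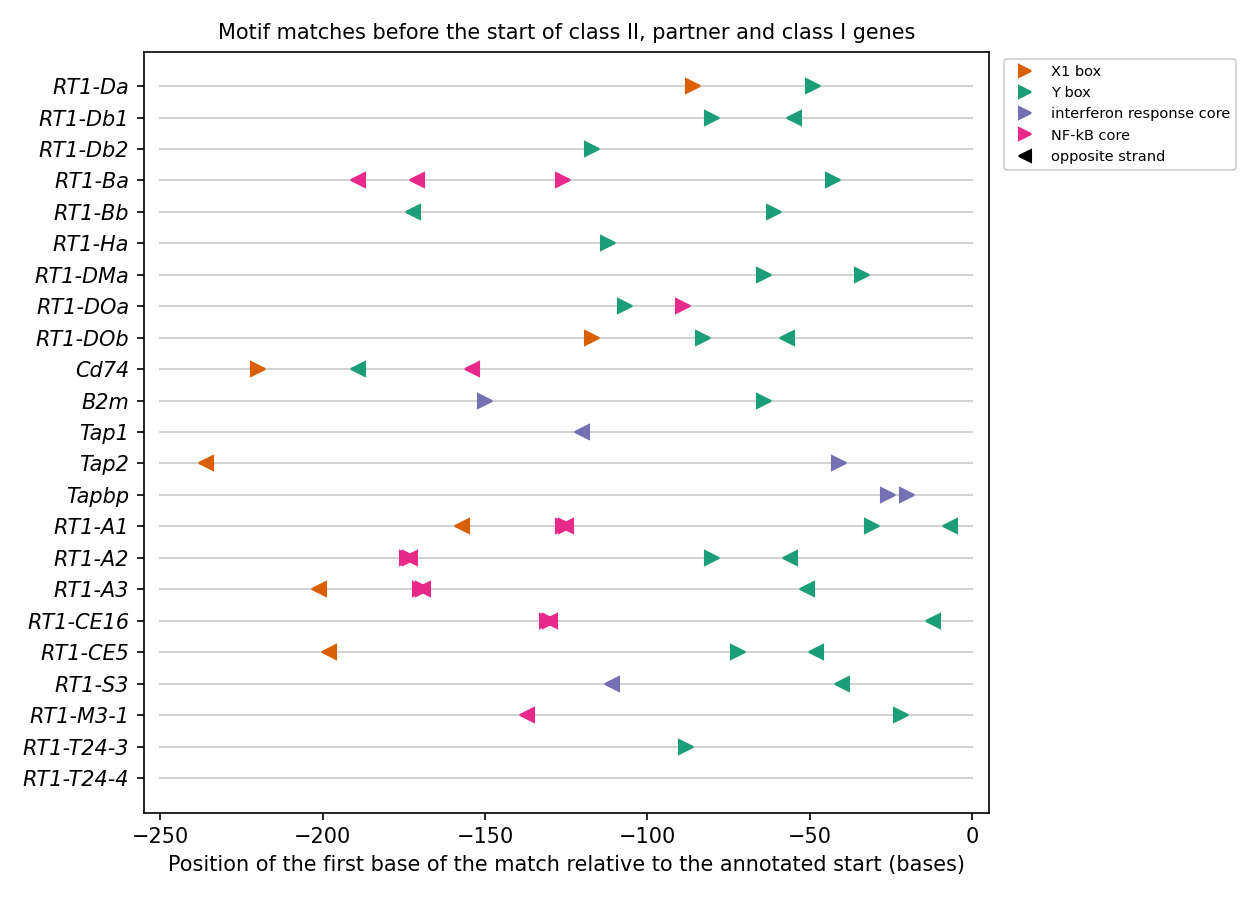
Motif matches in the 250 bases before the annotated start of class II genes, class I partners and the class I loci named in the text. The x axis gives the position of the first base of the match in bases from the start, triangles point right for the strand of the gene and left for the opposite strand, and colours stand for the 4 motifs; each of the 9 class II RT1 loci shown has a Y box, and the interferon response core is seen in B2m, Tap1, Tap2, Tapbp and RT1-S3.

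Means of most members were higher after FeCl3, but no member passed the test over all genes. Differences are in mean log2(FPKM + 1), FeCl3 minus saline, with the standard error from limma, a linear model that shares information on the spread across genes. Of the 47 members, 34 passed the filter of at least 1 FPKM in at least 4 libraries. None of the 34 had a Benjamini-Hochberg adjusted limma p below 0.05, and neither had any of the 11921 genes tested (0%), the smallest adjusted p being 0.245. At an unadjusted limma p below 0.05 there were 1981 genes, and limma voom on recovered fragments also gave 0 genes past the adjusted threshold. The count of all genes past it was 3288 when FPKM was rescaled to TPM (65 higher, RT1-Ba among them), 160 without saline replicate 4 (RT1-S3 among them) and 51 without saline replicates 1 and 4. At an unadjusted limma p below 0.05, 8 of the 34 tested members were higher after FeCl3 and 0 were lower, against 4.42% of all genes tested that were higher. These were RT1-Ba, RT1-Bb, RT1-Da, RT1-Db1, RT1-DOa and Cd74 of class II and B2m and RT1-S3 of class I. Without saline replicate 1 the count was 6 (2.47% of all genes tested), without saline replicate 4 it was 15 (6.24%), and without both it was 10 (4.51%). Without FeCl3 replicate 4, which had the highest leukocyte marker sum, and likewise without saline replicate 3, it was 3 (RT1-Ba, RT1-Bb and RT1-S3; 2.81% and 2.47% of all genes tested).

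The median difference of the tested members was 1.43 in class II (10 genes) and 0.66 in class I (24 genes), while the median of all genes tested was -0.25. Over all members, the filtered ones included, the medians were 1.38 in class II and 0.38 in class I, with a positive difference in 12 of 12 class II and 32 of 35 class I genes. Without saline replicate 1 these medians were 0.82 in class II and 0.14 in class I, and without FeCl3 replicate 4 they were 1.17 and 0.23. Means of the class II genes thus lay above the saline means more often and by more than those of class I, and this is a description of 8 libraries with no test of the difference between the classes. When FPKM was rescaled to TPM, so that each library sums to the same total, the median of all genes moved to -0.90, and the class medians were 1.03 and 0.06.

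**Figure D2:**
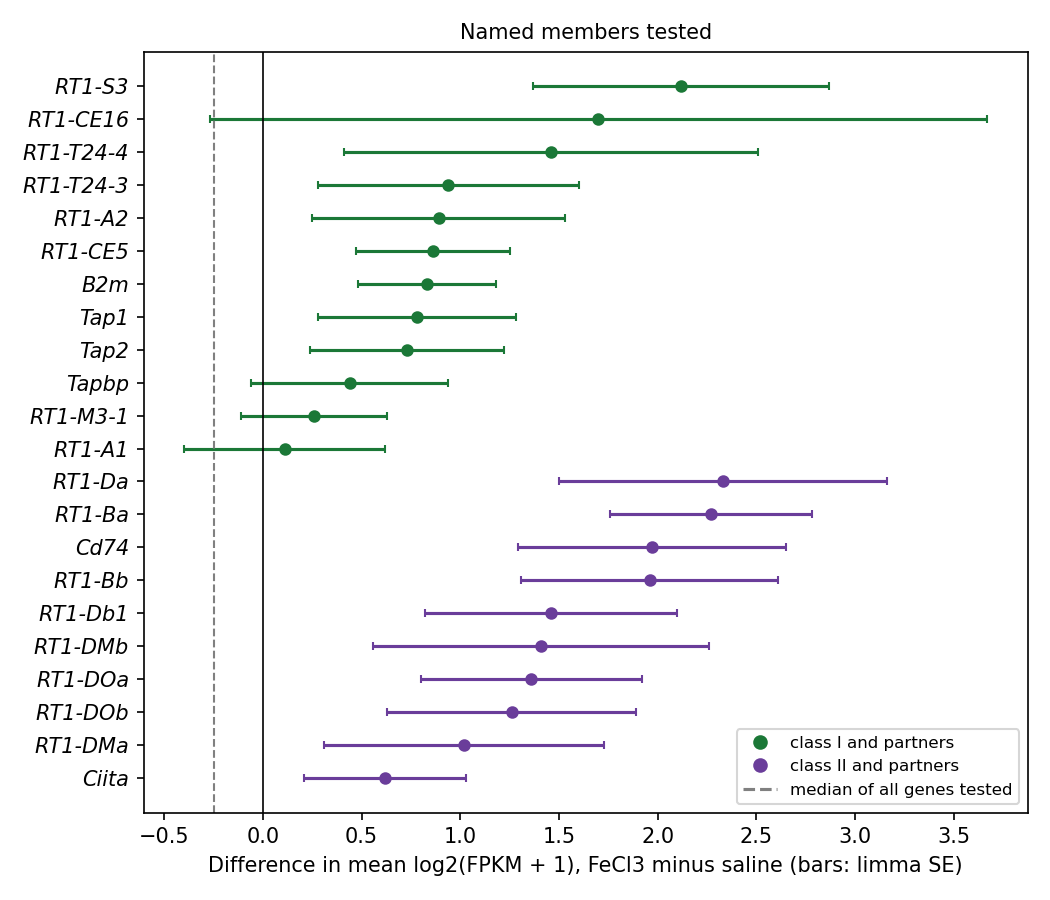
Difference in mean log2(FPKM + 1), FeCl3 minus saline, for the named members that passed the filter, with the limma standard error as bars and the median of all genes tested as a dashed line. RT1-Da, RT1-Ba and RT1-S3 have differences above 2, and the bar of RT1-CE16 is the widest, spanning 0.

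The chains that present peptide on the class II side are RT1-B, the counterpart of human DQ, and RT1-D, the counterpart of human DR. RT1-Ba, the alpha chain of RT1-B, was at 29.9, 14.6, 16.1 and 19.4 FPKM in FeCl3 replicates 1 to 4 and at 0.413, 3.64, 5.48 and 6.39 FPKM in saline replicates 1 to 4. The groups did not overlap for this gene, and its difference was 2.27 ± 0.51 (limma adjusted p = 0.245). It was the 1 tested member whose FeCl3 values were all above its saline values, beside 1.06% of all genes tested. RT1-Bb, the beta chain, was at 28.1, 5.73, 15.0 and 11.8 FPKM after FeCl3 and at 0.196, 4.34, 2.06 and 7.94 FPKM in saline. Saline replicate 4 exceeded FeCl3 replicate 2, so the groups overlapped, and the difference was 1.96 ± 0.65 (limma adjusted p = 0.254). Under TPM, RT1-Ba passed the threshold with a difference of 1.80 (limma adjusted p = 0.0466), and over its other alternatives it did not pass. Its unadjusted limma p was 0.0108 under TPM and 0.00182 with the deposited FPKM, so the gene's own result was weaker under TPM. All genes at an unadjusted limma p below 0.05 numbered 5999 under TPM, 5775 of them lower, against 1981 with the deposited FPKM.

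RT1-Da, the alpha chain of RT1-D, was the most abundant of the class II chains, at 103, 72.5, 54.5 and 111 FPKM after FeCl3 and 2.21, 35.4, 9.31 and 61.2 FPKM in saline. Saline replicate 4 lay within the FeCl3 range, and saline replicate 1 was far below the other saline libraries. The difference was 2.33 ± 0.83 (limma adjusted p = 0.259), and 1.54 without saline replicate 1. Its beta chain RT1-Db1 was at 15.2, 11.5, 10.3 and 19.7 FPKM after FeCl3 and 0.260, 7.63, 5.29 and 11.0 FPKM in saline, so that saline replicate 4 again overlapped the FeCl3 group. Its difference was 1.46 ± 0.64 (limma adjusted p = 0.300), and 0.77 without saline replicate 1.

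The second beta chain locus, RT1-Db2, was low throughout, at 0.280 to 0.843 FPKM after FeCl3 and 0 to 0.210 FPKM in saline, and was below the filter. Its groups did not overlap, but saline replicates 1 and 3 held 0 fragments, and a count of 0 allows up to 3 fragments, which would be 0.0633 and 0.0638 FPKM. RT1-Ha, a chain of the RT1-H locus, which corresponds to human DP, was also below the filter, at 0.290 to 1.27 FPKM after FeCl3 and 0 to 0.531 FPKM in saline. Neither of these low genes was tested.

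The peptide exchange chains RT1-DMa and RT1-DMb showed a different order of libraries. RT1-DMa was at 13.5, 10.8, 6.74 and 9.84 FPKM after FeCl3 and at 0.243, 14.7, 3.18 and 9.41 FPKM in saline. RT1-DMb was at 19.8, 17.5, 9.60 and 14.6 FPKM after FeCl3 and at 0.204, 22.3, 2.19 and 13.4 FPKM in saline. Saline replicate 2 held the highest value of the 8 libraries for RT1-DMa and for RT1-DMb, although its RT1-Da value was below all 4 FeCl3 values. The differences were 1.02 ± 0.71 for RT1-DMa (limma adjusted p = 0.469) and 1.41 ± 0.85 for RT1-DMb (limma adjusted p = 0.413). Without saline replicate 1 they were 0.31 and 0.64, and without saline replicate 2 they were 1.53 and 2.06.

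RT1-DOa and RT1-DOb encode the DO dimer, a brake on DM that is best known from B cells. RT1-DOa was at 3.23, 1.77, 3.66 and 8.10 FPKM after FeCl3 and at 0.112, 0.733, 0.113 and 4.33 FPKM in saline. RT1-DOb was at 3.88, 1.67, 4.65 and 9.01 FPKM after FeCl3 and at 0, 1.56, 0.316 and 5.69 FPKM in saline, where the count of 0 in replicate 1 allows up to 0.0855 FPKM. Saline replicate 4 lay above 3 of the 4 FeCl3 libraries for both genes. The differences were 1.36 ± 0.56 (limma adjusted p = 0.281) and 1.26 ± 0.63 (limma adjusted p = 0.335).

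Cd74, the invariant chain gene, was the most abundant class II member, at 220, 116, 168 and 251 FPKM after FeCl3 and 13.6, 69.5, 27.1 and 159 FPKM in saline. Saline replicate 4 lay above FeCl3 replicate 2 and the other saline libraries lay below the FeCl3 group. The difference was 1.97 ± 0.68 (limma adjusted p = 0.258). Ciita, the transactivator on which the class II genes depend, was far lower, at 1.49, 0.902, 2.34 and 4.26 FPKM after FeCl3 and 1.54, 0.365, 0.348 and 2.21 FPKM in saline. Saline replicate 1 had 1.54 FPKM of Ciita, more than 2 of the FeCl3 libraries, while it had the lowest value of the 8 libraries for Cd74, RT1-Da, RT1-Ba, RT1-Bb, RT1-Db1, RT1-DMa, RT1-DMb, RT1-DOa and RT1-DOb. The difference for Ciita was 0.62 ± 0.41 (limma adjusted p = 0.451), and 0.35 without FeCl3 replicate 4.

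**Figure D3:**
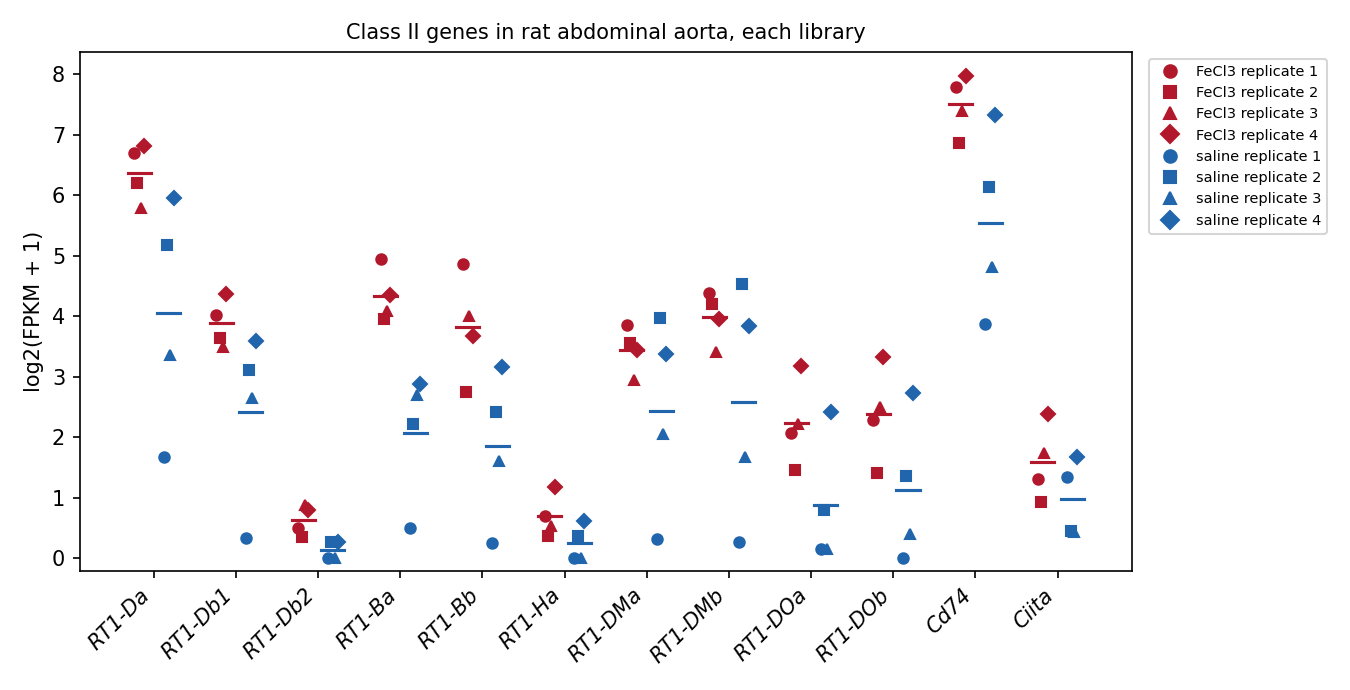
Level of each class II member in each library, as log2(FPKM + 1), with FeCl3 in red, saline in blue, a marker shape for each replicate and a bar at the group mean. Saline replicate 1 (blue circles) is at or near 0 for most of the chains but not for Ciita, and saline replicate 4 (blue diamonds) is within or near the FeCl3 values.

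The 2 chains of a dimer varied together in some pairs more than in others. The log2 ratio of RT1-Da to RT1-Db1, taken on FPKM + 1, was 2.29 to 2.68 in the FeCl3 libraries (mean 2.49 ± 0.17 SD, n = 4) and 0.71 to 2.37 in saline (mean 1.63 ± 0.75 SD, n = 4). The ratio of RT1-DMa to RT1-DMb was -0.65 to -0.45 after FeCl3 and -0.57 to 0.39 in saline, and that of RT1-DOa to RT1-DOb was -0.28 to 0.05 and -0.56 to 0.15. RT1-Ba to RT1-Bb was at 0.09 to 1.21 after FeCl3 and -0.28 to 1.08 in saline. The DM to DO balance, as RT1-DMb to RT1-DOb, was 0.64 and 0.91 in FeCl3 replicates 4 and 3 and 2.09 and 2.80 in replicates 1 and 2. In saline replicates 1 to 4 it was 0.27, 3.19, 1.28 and 1.10. Summed B cell markers were 55.2, 27.2, 103 and 94.7 FPKM in FeCl3 replicates 1 to 4 and 0.0273, 7.37, 3.91 and 59.5 FPKM in saline replicates 1 to 4. Saline replicate 1 had the lowest ratio and almost no B cell markers. Its RT1-DMb was at 0.204 FPKM and its RT1-DOb at 0, so its ratio of 0.27 was set by the added 1 FPKM. That value therefore does not measure the balance. Other ratios of this library were also pulled toward 0 by the added 1, with RT1-Db1 at 0.260 FPKM. Whether B cells had a part in the DM to DO ratio was not tested.

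On the class I side, B2m was by far the most abundant member. It was at 1299, 1620, 805 and 1169 FPKM after FeCl3 and at 503, 692, 552 and 1039 FPKM in saline. Saline replicate 4 lay above FeCl3 replicate 3, and the other saline values lay below the FeCl3 group. The difference was 0.83 ± 0.35 (limma adjusted p = 0.288). B2m was abundant also in saline replicate 1, where leukocyte markers were nearly absent.

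The peptide transporter genes were far lower and overlapped between groups. Tap1 was at 9.32, 5.63, 7.05 and 14.6 FPKM after FeCl3 and 1.07, 5.67, 5.90 and 9.48 FPKM in saline (difference 0.78 ± 0.50, limma adjusted p = 0.440). Tap2 was at 11.7, 8.67, 8.72 and 18.9 FPKM after FeCl3 and 1.91, 11.6, 5.92 and 11.4 FPKM in saline (difference 0.73 ± 0.49, limma adjusted p = 0.457). Tapbp was at 15.9, 11.4, 8.50 and 15.8 FPKM after FeCl3 and 2.36, 15.0, 14.4 and 11.0 FPKM in saline (difference 0.44 ± 0.50, limma adjusted p = 0.664). For these 3 genes saline replicate 1 was the lowest of the 8 libraries, and without it the differences of Tap1, Tap2 and Tapbp were 0.30, 0.27 and -0.09. Nlrc5, the class I transactivator, was below the filter, at 0.809, 0.431, 0.715 and 3.88 FPKM after FeCl3 and 0.00899, 1.20, 0.508 and 0.846 FPKM in saline, and was not tested.

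The 30 class I heavy chain loci of the RT1 region include the classical RT1-A genes and many nonclassical genes of the C/E, M, N, S and T regions. They are close copies of each other, and how the authors' counting treated fragments that fit several loci is not given in the sources used here, so the value of any single class I locus is uncertain. Of the 30, 20 were tested, and 18 of these had a positive difference. Their summed level was 143 to 362 FPKM after FeCl3 and 21.1, 111, 235 and 291 FPKM in saline replicates 1 to 4. The sums of the groups overlapped.

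RT1-S3 was at 61.2, 31.8, 69.9 and 57.8 FPKM after FeCl3 and at 2.23, 11.4, 9.58 and 55.2 FPKM in saline. Apart from saline replicate 4, the saline libraries lay below all FeCl3 libraries. The difference was 2.12 ± 0.75 (limma adjusted p = 0.258); without saline replicate 4 it was 2.85 (limma adjusted p = 0.0451), which passes the threshold, while its other alternatives did not. RT1-S3 held 24.3% to 36.4% of all class I RT1 fragments after FeCl3, 7.69% to 12.2% in saline replicates 1 to 3 and 24.4% in saline replicate 4. The exact 95% binomial (Clopper-Pearson) intervals of FeCl3 replicate 1 and saline replicate 4, 23.6% to 24.9% and 23.7% to 25.1%, overlapped. Such intervals cover counting error only.

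RT1-CE16 was at high levels in some libraries and nearly absent from others, in both groups. It was at 104, 0.428, 87.1 and 1.29 FPKM in FeCl3 replicates 1 to 4 and at 0.0298, 0.446, 133 and 0.357 FPKM in saline replicates 1 to 4. These values rest on 3023, 13, 2488 and 38 fragments after FeCl3 and on 1, 12, 4420 and 10 fragments in saline. FeCl3 replicates 1 and 3 and saline replicate 3 were high, with no value between 1.29 and 87.1 FPKM. In these 3 libraries RT1-CE16 had the highest FPKM of the class I loci, and it made up 16.2%, 17.9% and 42.0% of their class I RT1 fragments (exact 95% intervals 15.7% to 16.8%, 17.3% to 18.5% and 41.1% to 43.0%). In the other 5 it made up at most 0.229%. Its range over the 8 libraries, 7.02 on the log2 scale, was wider than that of 99.5% of genes tested, whose median range was 1.47. The difference between the groups was 1.70 ± 1.97 (limma adjusted p = 0.668), it was 0.70 to 3.38 with single libraries left out, and it was -0.08 without saline replicates 1 and 4.

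RT1-A3, which was singled out after its values had been seen, had its 3 highest values in the same libraries. It was at 9.63, 0.263, 7.35 and 0.339 FPKM after FeCl3 and at 0.0396, 0.419, 12.1 and 3.50 FPKM in saline (difference 0.20 ± 0.99, limma adjusted p = 0.930). Saline replicate 4 was intermediate for RT1-A3 but low for RT1-CE16. Fragments shared between loci of like sequence could enter both values, and this was not tested. The leukocyte sums of the 3 libraries with high RT1-CE16 were 189, 149 and 24.1 FPKM, and those of the other 5 were 1.32 to 506, so RT1-CE16 did not follow the leukocyte markers over these libraries.

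**Figure D4:**
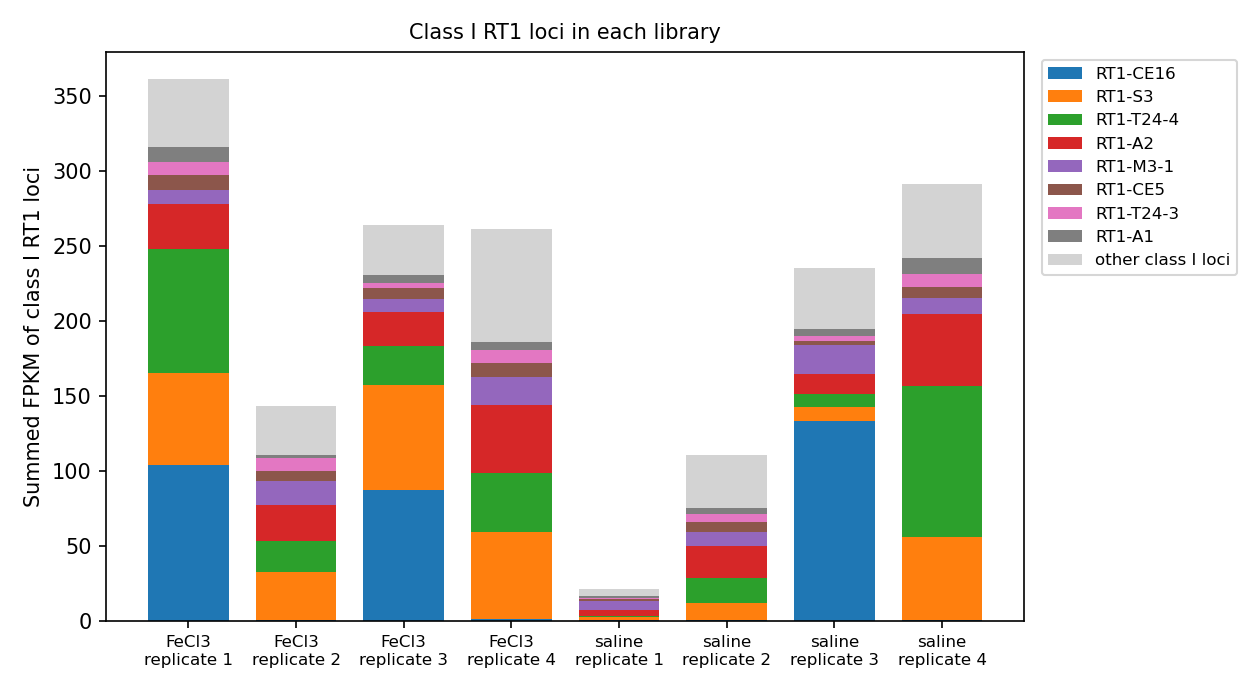
Summed FPKM of the class I RT1 loci in each library, stacked by locus, with the 8 loci of highest mean in colour and the other 22 in grey. RT1-CE16 (blue) is a large part of FeCl3 replicates 1 and 3 and saline replicate 3 and is hardly visible elsewhere; the sum of saline replicate 1 is 21.1 FPKM.

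RT1-T24-4 was at 83.0, 20.6, 26.3 and 39.4 FPKM after FeCl3 and at 0.958, 16.8, 8.78 and 101 FPKM in saline, where replicate 4 was the highest of all 8 libraries (difference 1.46 ± 1.05, limma adjusted p = 0.482). The classical locus RT1-A2 was at 30.1, 24.2, 22.5 and 45.2 FPKM after FeCl3 and 3.58, 21.4, 13.4 and 48.1 FPKM in saline (difference 0.89 ± 0.64, limma adjusted p = 0.484). RT1-A1, also of the RT1-A region, had nearly equal means of 5.65 ± 3.41 and 5.32 ± 3.93 FPKM (SD, n = 4 each). RT1-M3-1, a locus of the M region whose product is known for presenting N-formylated peptides, varied least of these loci, at 9.47, 16.4, 9.17 and 18.6 FPKM after FeCl3 and 6.24, 8.89, 19.5 and 11.0 FPKM in saline. In saline replicate 1 it had the highest FPKM of the class I loci, 29.6% of their summed FPKM. RT1-CE5 was at 6.25 to 9.54 FPKM after FeCl3 and 1.65 to 7.04 FPKM in saline, and RT1-T24-3 at 2.90 to 9.11 and 0.0407 to 8.48 FPKM. Differences of RT1-A1, RT1-M3-1, RT1-CE5 and RT1-T24-3 were 0.11, 0.26, 0.86 and 0.94, with limma adjusted p from 0.310 to 0.923. Without saline replicate 1, the differences of RT1-T24-4, RT1-A2, RT1-A1, RT1-M3-1, RT1-CE5 and RT1-T24-3 were 0.53, 0.28, -0.20, 0.04, 0.56 and 0.29, and without saline replicate 4 those of RT1-T24-4, RT1-A2 and RT1-A1 were 2.43, 1.42 and 0.48.

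The remaining 22 class I loci were lower. Of them 12 were tested, with differences from -0.44 to 1.41 (RT1-N2) and limma adjusted p from 0.324 to 0.930, and 10 of the 12 were positive. The 2 negative ones were RT1-CE10 and RT1-CE11, with differences of -0.16 and -0.44. The other 10 were below the filter, and RT1-CE7, RT1-M10-1 and RT1-T18 had 0 fragments in 7 of the 8 libraries and 1 fragment in the remaining one.

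Partners from a list of 48 antigen presentation genes outside the member set, 47 of them in the table and 43 tested, gave 0 genes past the adjusted threshold. At an unadjusted limma p below 0.05, 9 of the 43 were higher and 0 were lower, beside the 4.42% of all genes tested; their median difference was 0.26. In the immunoproteasome, which cuts peptides for class I, 2 of 5 genes were among the 9. Psmb8 was at 36.1, 55.3, 19.4 and 73.6 FPKM after FeCl3 and 1.06, 27.1, 8.68 and 26.9 FPKM in saline (difference 1.92 ± 0.83, limma adjusted p = 0.299). Psmb9 was at 24.9, 30.6, 14.3 and 32.8 FPKM after FeCl3 and 2.92, 15.5, 10.2 and 18.8 FPKM in saline (difference 1.22 ± 0.51, limma adjusted p = 0.286). Saline values of both overlapped FeCl3 replicate 3. The proteasome activator gene Psme1, the most abundant of the group, had means of 118 and 98.8 FPKM.

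Of 7 genes that process or turn over class II, Ctss and Marchf1 were among the 9. Ctss, the cathepsin that trims the invariant chain, was at 46.2, 38.2, 13.6 and 36.6 FPKM after FeCl3 and 0.910, 7.34, 3.57 and 27.5 FPKM in saline (difference 2.23 ± 0.77, limma adjusted p = 0.258). Marchf1, a ubiquitin ligase that removes class II from the surface, was at 2.41, 2.45, 2.41 and 3.42 FPKM after FeCl3 and 0.00530, 0.211, 0.224 and 2.34 FPKM in saline (difference 1.29 ± 0.38, limma adjusted p = 0.245). Its groups did not overlap, although saline replicate 4 came close to the FeCl3 values. Ctsb, the most abundant cathepsin listed, had means of 328 and 228 FPKM (difference 0.57 ± 0.32, limma adjusted p = 0.387).

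No tested gene of the 2 lists of upstream factors had an unadjusted limma p below 0.05. Among all 11921 genes tested, 527 were higher and 1454 lower at that level. How often a list this short would hold 0 such genes was not tested, so nothing is read from that count. In the class II enhanceosome (RFX, CREB and NF-Y subunits) 0 of 7 genes had an unadjusted limma p below 0.05, with differences from -0.39 to 0.27; Nfyc was at means of 15.7 and 17.7 FPKM. In the interferon gamma pathway 0 of 8 tested genes did, with a median of 0.19 and, over all 9 genes, differences from -0.24 to 0.67, and the receptor gene Ifngr1 was at 36.9 and 37.5 FPKM. The same held for 0 of 5 genes of peptide loading and trimming, where Calr was at 253 and 267 FPKM, for 0 of 4 class I-like genes outside RT1, where Fcgrt was at 54.2 and 47.7 FPKM, and for 0 of 2 tested co-stimulation genes, where Cd274 was at 2.61 and 2.71 FPKM. A p above the threshold does not show that these genes were equal between groups.

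The receptors on T cells that meet MHC molecules gave 5 of the 9 genes. Cd4, which binds class II, was at 16.3, 7.85, 7.12 and 26.5 FPKM after FeCl3 and 0.101, 3.09, 1.28 and 14.0 FPKM in saline (difference 1.95 ± 0.76, limma adjusted p = 0.274). Cd8a, a chain of the receptor that binds class I, was at 10.4, 5.55, 10.3 and 78.6 FPKM after FeCl3 and 0.0238, 1.84, 0.384 and 7.14 FPKM in saline (difference 2.75 ± 0.87, limma adjusted p = 0.248). Cd8b, Cd3e and Cd3g had differences of 1.82, 2.85 and 3.13. FeCl3 replicate 4 stood above the other libraries for Cd8a, Cd8b, Cd3e and Cd3g, with Cd3g at 134 FPKM against 18.6 at most elsewhere.

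Markers of blood and immune cells, and of some wall and fat cells, were also higher in mean after FeCl3. The summed level of 4 pan-leukocyte markers (Ptprc, Cd53, Laptm5 and Coro1a) was 101 to 506 FPKM after FeCl3 and 1.32 to 145 in saline, and 4 of 4 had an unadjusted limma p below 0.05. The B cell sum (6 markers) was 27.2 to 103 and 0.0273 to 59.5 FPKM, with 4 of 6 at that level, and the T and NK cell sum (5 markers) 23.8 to 293 and 0.0884 to 31.0 FPKM, with 5 of 5. For dendritic cells (7 markers, 4 tested) the sum was 12.8 to 75.6 and 2.55 to 15.7 FPKM, with 3 of 4 higher and 1 lower. Ccr7 was its largest part in each FeCl3 library, at 16.7, 6.28, 14.6 and 66.2 FPKM in replicates 1 to 4. Zbtb46 was the lower one, at 1.76 to 2.14 FPKM after FeCl3 and 2.48 to 6.75 FPKM in saline. Flt3, Xcr1 and Clec9a were below the filter, so the list did not move as one. The macrophage sum (7 markers) was 19.5 to 204 and 2.07 to 99.0 FPKM, with 0 of 7. The monocyte and neutrophil sum (4 markers) was 246 to 686 and 3.66 to 497 FPKM, with 3 of 4. Red cell markers (7 of 8) and platelet markers (3 of 4) had median differences of 3.32 and 2.52. Fibroblast markers summed to 320 to 2090 and 26.6 to 950 FPKM and adipocyte markers to 419 to 10302 and 1.77 to 7960 FPKM, with 0 of 4 at that level in each list. Endothelial markers summed to 100 to 191 and 6.86 to 158 FPKM and smooth muscle markers to 3664 to 10544 and 4697 to 25238 FPKM. In bulk tissue, more cells of a type and more RNA per cell cannot be told apart. With the mean leukocyte marker level as a covariate, the median difference was -0.01 in class II and -0.33 in class I, beside -0.40 over all genes tested. At an unadjusted limma p below 0.05, 0 of the 34 members were then higher and 2 were lower. Of all 11921 genes tested, 10 (0.0839%) were higher and 724 lower in that fit, so the loss of higher genes was not particular to the members. Because the leukocyte marker level itself differed between the groups, with saline replicate 4 alone inside the FeCl3 range, this fit cannot tell leukocyte content from treatment. What part the leukocyte content had in the class II values was not tested.

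**Figure D5:**
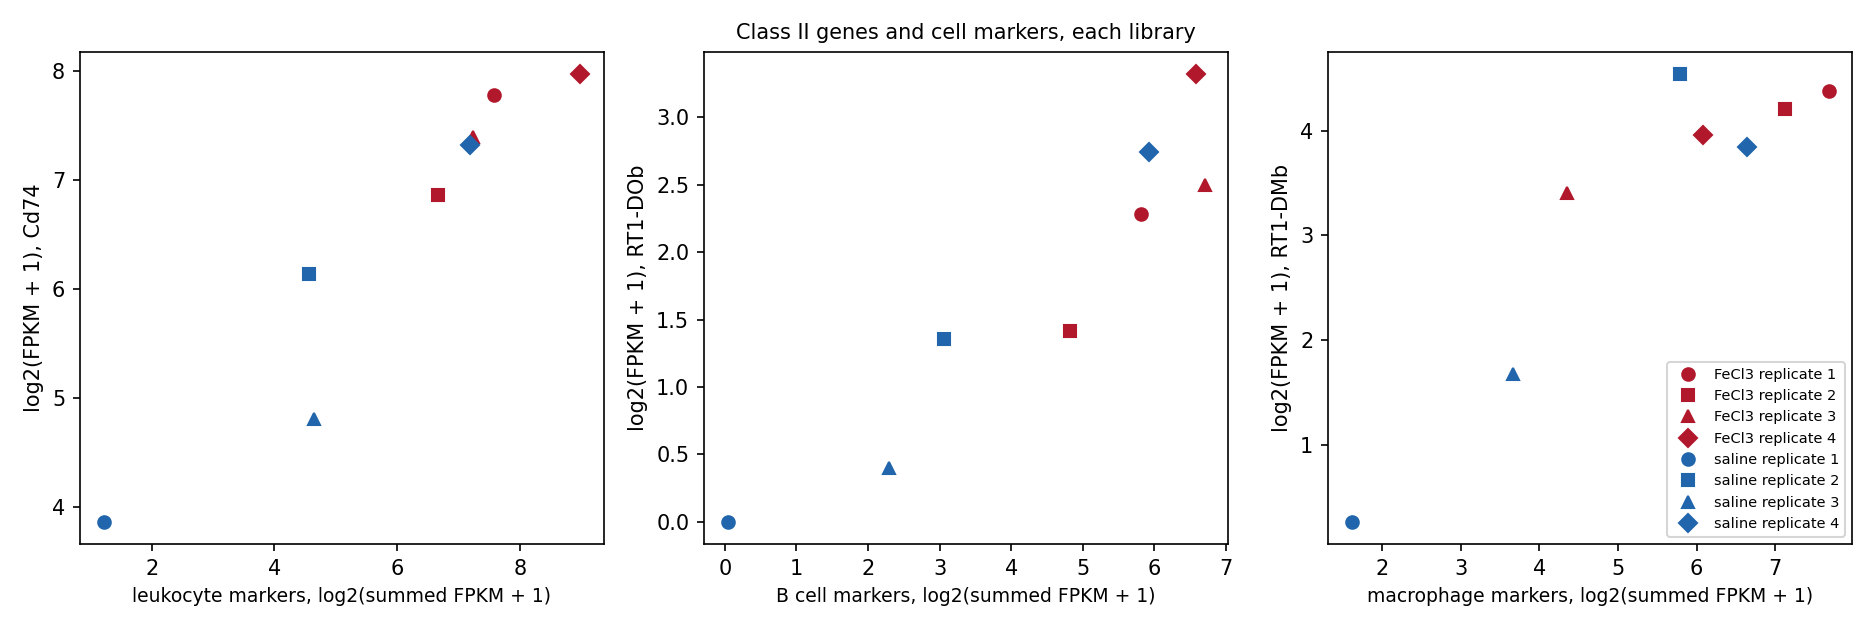
Level of a class II gene against the summed level of a marker list in each library, both as log2(FPKM + 1), for Cd74 with leukocyte markers (left), RT1-DOb with B cell markers (middle) and RT1-DMb with macrophage markers (right). FeCl3 libraries are red and saline libraries blue, with a shape for each replicate; in each panel saline replicate 1 is at the lower left and saline replicate 4 is near the FeCl3 libraries.

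The balance of class II to class I was followed by 2 ratios. The log2 ratio of Cd74 to B2m was -2.55, -3.79, -2.26 and -2.21 after FeCl3 (mean -2.70 ± 0.74 SD, n = 4) and -5.11, -3.30, -4.30 and -2.70 in saline (mean -3.85 ± 1.06 SD, n = 4). The means differed by 1.15, which did not pass the test (exact two-sided permutation test over 70 arrangements, p = 0.171, adjusted over the 2 ratios 0.343; the smallest p this design allows is 0.0286). FeCl3 replicate 2, with the highest B2m value, had a lower ratio than saline replicates 2 and 4. The ratio of the transactivators, Ciita to Nlrc5, was 0.11 to 0.96 after FeCl3 and -0.69 to 1.33 in saline, with a difference of 0.17 (exact permutation p = 0.771, adjusted 0.771). Its direction turned to -0.69 with no pseudocount and to -0.17 without saline replicate 2.

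Among the tested genes outside the member set, those whose log2(FPKM + 1) followed Cd74 most closely over the 8 libraries were Gpsm3, Cd82, Ptpn6, Ptpn18 and Apobr, each with Pearson r = 0.99. Gpsm3 was at 11.4 to 21.7 FPKM after FeCl3 and at 0.161, 3.35, 0.841 and 12.6 FPKM in saline. For B2m they were Ccr1 (r = 0.98), Ccr2, Jaml and Aif1 (each 0.97) and Retnlg (0.96), with Ccr1 at 7.34, 9.10, 0.986 and 3.85 FPKM after FeCl3 and at 0, 1.07, 0.468 and 4.12 FPKM in saline. For RT1-CE16, added after its values were seen, the closest were Shisal2b (0.87) and Scgn and Wbp2 (0.84 each). The 5 genes for Cd74 and those for B2m are different genes, and FeCl3 replicate 3 was low in Ccr1 while it was not low in Gpsm3. All points share the libraries and their leukocyte content, and the values were picked as the highest of 11921 genes, so they are descriptions.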

How the data were processed

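PolyA RNA of 8 rat abdominal aortas (4 FeCl3, 4 saline) was sequenced. Per the submitters' processing notes, the authors used fastp, HISAT2, HTSeq and the genome build mRatBN7.2, with versions not given in the sources used here; the annotation, strand setting and treatment of fragments that fit several loci were also not given. The deposited values are FPKM per gene, which the authors scaled by transcript length and library total. Each column was tied to its sample by title.

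FPKM was taken as log2(FPKM + 1), genes with at least 1 FPKM in at least 4 libraries were kept (11921 of 18090), and FeCl3 was compared with saline over all these genes by limma's moderated test with a mean-variance trend (limma 3.58.1, R 4.3.3; Benjamini-Hochberg threshold 0.05). Replicate labels carry no pairing, and the limma p-values set each difference against the spread between these samples. Whole fragments were recovered from the FPKM steps for all 18090 genes within 0.02 of a fragment; the genes' sums reached at least 98.0% of each recovered total of 24304434 to 30283292. The recovery was tested on simulated data (8 of 8 totals exact, 98.0% of 8867 genes exact). On simulated data with the observed spread, the test found 54.5% of 4-fold and 96% of 16-fold changed genes (7 false of 158 calls, 11921 genes). Simulated noise was drawn for each gene on its own, without shifts that many genes of a library share. These percentages therefore check the test and do not give its power in the real libraries. Fragments served for shares, for limits on counts of 0 (3 fragments) and for a voom alternative. Ratios were compared by exact permutation of the 8 libraries (scipy 1.17.1).

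Members and gene lists were chosen with earlier results of these data known. Named were the 7 partner genes, every class II RT1 locus, the 8 class I loci of highest mean FPKM, any member with an unadjusted p below 0.05, for Cd74 and B2m the 5 most alike genes, and in each subgroup of the antigen presentation list the most abundant gene and any with an unadjusted p below 0.05; RT1-A3, RT1-N2, RT1-CE10 and RT1-CE11 and the loci with 1 fragment were named after their values were seen. Alternatives covered pseudocount, filter, scaling, moderation and each library left out; voom, leaving out saline replicates 1 and 4 together and the leukocyte covariate were chosen after seeing the data. Promoters are RefSeq's (GRCr8) and were searched for motifs in the 250 bases before the start. A comparison of protein sequences was not run.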

Additional observations from a re-analysis of the deposited data

Results flagged for a closer look

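Of 50 groups of 4 values examined (25 named members in each treatment), 5 held a library far from the other 3, that is, with a gap to the nearest value above Dixon's critical share of the whole range. Gaps were taken on FPKM, not on the log2 scale used elsewhere. A chance rate of about 1 in 20 groups holds for normally distributed values. FPKM need not be so distributed, so the chance rate here is not known and the flags depend on the scale. RT1-CE16 in saline replicate 3 was at 133 FPKM, against 0.0298 to 0.446 in the other saline libraries. RT1-T24-4 in saline replicate 4 was at 101 FPKM, against 0.958 to 16.8, and RT1-DOa in the same library was at 4.33 FPKM, against 0.112 to 0.733. Saline replicate 4 was also the saline library with the highest leukocyte and red cell markers; their part in these values was not tested. Nlrc5 in FeCl3 replicate 4 was at 3.88 FPKM, against 0.431 to 0.809 in the other FeCl3 libraries, and that library had the highest T and NK cell marker sum (293 FPKM). RT1-T24-3 in FeCl3 replicate 3 was at 2.90 FPKM, against 8.63 to 9.11.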

How the results depend on the processing

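No paired analysis was possible because the samples are described as biologically independent and nothing in the labels ties a FeCl3 sample to a saline sample; replicate numbers here only name samples. The 25 named members were recomputed under 20 alternatives each, 500 values in all, of which 463 kept their direction and their side of the threshold (or, untested, moved by less than the spread); 2 passed it newly, RT1-Ba under TPM and RT1-S3 without saline replicate 4. The count of all genes past the threshold was 0 with the deposited FPKM, 3288 under TPM (65 higher, 3223 lower), 51 without saline replicates 1 and 4 together, and 0 to 160 with single libraries left out, 160 being without saline replicate 4 (150 higher, RT1-S3 among them). With voom on recovered fragments it was 0, with 2075 genes at an unadjusted p below 0.05, against 1981 with limma on log2(FPKM + 1). Members higher at an unadjusted p below 0.05 numbered 15 with median-of-ratios scaling and 13 with quantile normalization (8.93% and 8.82% of all genes), 3 under TPM (1.88%), and 3 to 15 with single libraries left out.

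The class II median difference was 2.61 with a pseudocount of 0.01, where the low genes RT1-Db2 and RT1-Ha had differences of 3.51 and 3.18. It was 0.82 without saline replicate 1, which took the class I median to 0.14. With voom, the tested class II members had differences from 1.23 (Ciita) to 3.33 (RT1-DOb). With the leukocyte covariate the medians were -0.01 in class II and -0.33 in class I, beside -0.40 over all genes tested. That covariate also reversed the direction of RT1-A1 (-1.02), RT1-A2 (-1.0), RT1-CE5 (-0.04), RT1-DMa (-0.45), RT1-DMb (-0.31), RT1-DOa (-0.17), RT1-DOb (-0.52), RT1-Db1 (-0.28), RT1-M3-1 (-0.16), RT1-T24-3 (-0.69), RT1-T24-4 (-1.48), Tap1 (-0.63), Tap2 (-0.55) and Tapbp (-0.54). TPM reversed RT1-A1 (-0.51), RT1-M3-1 (-0.42) and Tapbp (-0.22), and leaving out saline replicates 1 and 4 reversed RT1-CE16 (-0.08), RT1-M3-1 (-0.05) and Tapbp (-0.22). With single libraries left out, RT1-A1 ranged from -0.20 to 0.48 and Tapbp from -0.09 to 0.66. The Ciita to Nlrc5 difference was -0.69 with no pseudocount and -0.17 to 0.50 with single libraries left out. The cause of these changes was not tested.

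For members with few fragments, such as RT1-Db2 and RT1-Ha, small differences were not detectable at this depth, and FPKM depends on the share of each library taken by globin transcripts. The spread within groups was wide. On the log2 scale, the pooled within-group SD of each library's class median was 0.86 in class II and 0.68 in class I. Gene by gene, which is another measure, the pooled SD of tested members was 0.63 (Ciita) to 1.42 (RT1-DMb) in class II. In class I it was 0.44 (B2m) to 3.35 (RT1-CE16), beside a median of 0.45 over all genes tested.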
